A study of Mus musculus with 15 samples.

Results

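The zinc finger genes whose symbols start with Zfp were examined at all their autosomal loci: 387 of the 20721 autosomal protein-coding genes of the GENCODE M21 annotation (GRCm38, the mm10 build) were taken by symbol. A gene with another Zfp gene within 100 kb was called clustered (218 genes) and the others solitary (169 genes). The clustered genes formed 49 runs, of which 15 held at least 5 genes and together 131 genes, and 92 of the 387 genes were on chromosome 7. Symbols starting with other letters were not counted as neighbors, so some solitary genes may have zinc finger neighbors of another name.

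All libraries came from DNA of E14TG2a, a mouse embryonic stem cell line grown on gelatin with serum and LIF. In hmTOP-seq the enzyme BGT puts an azide sugar on 5-hydroxymethylcytosine (5hmC) and a DNA tether then primes sequencing at the labeled CG, and 2 libraries each were made from 500, 50 and 5 ng of DNA, with 2 control libraries without BGT at each input. In uTOP-seq the unmodified CGs are read in the same way, in 3 libraries from 300 ng of DNA. Replicates were technical libraries of 1 cell line, so p-values measure only the spread between such libraries.

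A C2H2 zinc finger is a short repeat in which a pair of cysteines and a pair of histidines hold a zinc ion, and the repeats follow each other through a conserved linker. Many of these proteins begin with a KRAB box, which binds Trim28 and through it the H3K9 methyltransferase Setdb1, HP1 proteins and the silencing of retroelements, and their genes multiplied by tandem duplication, with all the fingers usually coded in 1 long last exon. 5hmC is made by TET enzymes from methylated CGs and is common in the bodies of active genes, whereas CG-rich promoters are mostly unmodified.

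Among the 387 genes, 371 coded at least 1 C2H2 finger (median 10 fingers over all genes, highest 36), 3 coded CCCH fingers and 13 neither by the patterns searched, and in 295 of the 371 most fingers lay in the last exon. A KRAB A box was found in 224 genes, in 79.8% of the clustered and in 29.6% of the solitary ones. The last exons had a median length of 2501 bp against 1139 bp over all protein-coding genes, and KRAB genes had fewer CGs there than the others, with a median of 0.927 against 1.86 CGs per 100 bp.

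The data can be seen in the finger repeats themselves. The lines below give one 84-base repeat each, 5′ to 3′ on the coding strand from the first cysteine codon, taken from GRCm38, with CGs in capitals. The first 3 genes held the repeats with the most 500-ng hmTOP-seq reads among 1770 repeats considered, those in last exons with a unique flank at every CG on the chromosomes searched. The next 3 had no such read in the whole last exon and have CGs whose flanks occur once in the genome. Flanks were matched exactly, so near copies elsewhere were not counted and can still hinder mapping.
Zfp251 repeat: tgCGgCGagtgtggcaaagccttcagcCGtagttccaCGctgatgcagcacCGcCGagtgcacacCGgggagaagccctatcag
Zfp668 repeat: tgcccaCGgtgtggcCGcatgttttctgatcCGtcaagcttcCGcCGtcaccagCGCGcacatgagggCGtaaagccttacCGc
Zfp524 repeat: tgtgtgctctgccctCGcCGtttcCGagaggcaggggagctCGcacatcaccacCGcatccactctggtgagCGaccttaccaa
Zfp433 repeat: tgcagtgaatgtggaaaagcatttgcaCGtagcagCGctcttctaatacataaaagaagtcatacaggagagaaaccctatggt
Zfp970 repeat: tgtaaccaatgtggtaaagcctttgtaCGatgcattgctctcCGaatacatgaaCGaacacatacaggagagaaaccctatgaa
Zfp600 repeat: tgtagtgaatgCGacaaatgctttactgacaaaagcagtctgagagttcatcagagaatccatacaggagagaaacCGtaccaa

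The Zfp251 repeat (chr15:76853527-76853610, minus strand, a clustered KRAB gene) has 7 CGs, which held 138 and 124 hmTOP-seq reads in the 2 libraries from 500 ng and 67, 27 and 34 uTOP-seq reads. The Zfp668 repeat (chr7:127867084-127867167, minus strand) has 9 CGs with 108 and 98 hmTOP-seq reads and 28, 17 and 21 uTOP-seq reads. The Zfp524 repeat (chr7:5017973-5018056, plus strand) has 6 CGs with 116 and 87 hmTOP-seq reads and 27, 24 and 16 uTOP-seq reads. In each of these repeats every CG was read in both hmTOP-seq libraries. The repeats of Zfp433 (chr10:81720239-81720322), Zfp970 (chr2:177475703-177475786) and Zfp600 (chr4:146196444-146196527), all KRAB genes on the plus strand, have 2, 3 and 2 CGs with no read in any of these 5 libraries. The repeats were chosen by their reads, so the contrast between the sets is a description.

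The 2 hmTOP-seq libraries from 500 ng held 32159559 and 31577846 autosomal reads, on average 1.58 and 1.55 reads per CG, against 1.12 and 1.07 at 50 ng, 0.722 and 0.741 at 5 ng, and 0.972 to 1.37 in uTOP-seq. Coverage is therefore given as reads per CG of a region divided by the library's autosomal mean (relative coverage), for regions with at least 5 CGs, and 375 last exons and all 387 promoters and gene spans had as many. The control libraries held 18 to 75 reads in the Zfp gene spans, against 109606 to 247686 in the labeled libraries. Their share of autosomal reads was 0.532% to 2.02%, near the 0.66% of autosomal CGs in these spans except for 1 control at 5 ng (2.02%, exact 95% interval 1.59% to 2.53%, counting error only), in which 41 of the 75 reads fell on 1 CG of Zfp961. Of 134542 CGs in the Zfp spans, 6888 had 80 outward bases that occur more than once in the genome on both sides, and in the 500-ng libraries these CGs had a relative coverage of 0.0447 and 0.0481 against 1.23 and 1.22 for the others.

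The last exon was first set against the rest of the gene span within each library. With edgeR's quasi-likelihood test (Benjamini-Hochberg adjusted p below 0.05 and at least a 2-fold ratio), hmTOP-seq coverage at 500 ng was higher in the last exon in 105 and lower in 77 of the 342 Zfp genes tested, whereas 45 were not tested for low counts or too few CGs. These shares, 30.7% and 22.5%, stood beside 30.1% and 16.9% of all 14604 genes tested. In uTOP-seq the last exon was higher in 13 and lower in 129 of 349 Zfp genes (3.72% and 37%), against 5.54% and 20.8% of 15016 genes. The median log2 ratio of last exon to rest was 0.20 in hmTOP-seq and -0.72 in uTOP-seq over the Zfp genes, and 0.33 and -0.32 over all genes tested. Of 340 Zfp genes tested in both assays, 84 were called higher in hmTOP-seq and not called in uTOP-seq. Further, 56 were lower in both, 11 higher in both, and 10 higher in hmTOP-seq but lower in uTOP-seq. These pairs were not counted over all genes, so they are not read as a trait of the Zfp genes. KRAB genes and the others divided differently: 37 higher and 63 lower of 188 KRAB genes in hmTOP-seq, against 68 higher and 14 lower of 154 without a KRAB box.

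Zfp524 (chr7:5014415-5018488), whose protein binds telomeric repeats, had the highest mean last-exon coverage in hmTOP-seq of all Zfp genes. Its 41 last-exon CGs had a relative coverage of 8.66 and 6.82 in hmTOP-seq at 500 ng, and the 120 CGs of its remaining span 0.0634 and 0.0861, a log2 ratio of 6.68 ± 0.19 (SE; adjusted p = 1.07e-17). uTOP-seq gave 3.11, 2.95 and 3.26 in the last exon and 2.60, 2.09 and 2.19 in the rest, so the contrast was seen in hmTOP-seq with little in uTOP-seq. Zfp553 was alike, with 3.09 and 2.80 in the last exon against 0.0437 and 0.0519 in the rest (log2 ratio 5.92 ± 0.24, SE; adjusted p = 1.50e-15), as was Zfp593, with 2.27 and 1.78 against 0.0704 and 0. In Zfp281, a regulator of pluripotency genes, the last exon had 0.606 and 0.468, and the 56 CGs of the rest, all with a unique flank, had no read, so the last exon was at least 31.4-fold higher (against 3 reads over both libraries). Zfp955b had 1.30 and 1.36 in the last exon and no read in the rest, but only 17.3% of the CGs in its rest had a unique flank. Zfp36l2, a CCCH protein that binds AU-rich elements in mRNA, had 133 last-exon reads in both libraries and 1 in the rest.

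At the other end stood genes whose last exon had no hmTOP-seq read at 500 ng. Zfp451, which codes a SUMO ligase, had none at the 8 CGs of its last exon and 1.08 and 1.09 over the rest, at least 9.05-fold lower. The KRAB genes Zfp874a (18 CGs), Zfp442 (16), Zfp943 (15), Zfp934 (12) and Zfp808 (9) likewise had no read, and their last exons were lower than the rest by at least 11.8-, 7.16-, 6.46-, 5.04- and 5.35-fold. In uTOP-seq too the last exons of Zfp808 and Zfp934 had no read in 3 libraries, and that of Zfp874a had 0.0405, 0.0499 and 0.0571. In these 3 genes both assays were thus at or near 0 in the last exon. Of the 375 last exons with at least 5 CGs, 36 (9.6%) had no read in either 500-ng library. A unique flank was present at 55.1% of their 488 CGs. Over all protein-coding genes 764 of 17187 such last exons (4.45%) had no read, with a unique flank at 48.5% of their CGs. Among the Zfp genes they were 34 of 217 with a KRAB box and 2 of 158 without. Of the 34, 21 were clustered, out of 169 such KRAB last exons (12.4%), with a unique flank at 73.2% of their CGs. The other 13 were solitary, out of 48 (27.1%), with a unique flank at 30.05%.

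In uTOP-seq the last exons called highest against the rest included Zfp697 (1.87, 1.68 and 1.86 against 0.427, 0.419 and 0.414; log2 ratio 2.10 ± 0.07, SE; adjusted p = 4.18e-17), Zfp777 (4.34, 4.50 and 4.37 against 1.25, 1.11 and 1.23), Zfp648 and Zfp385b, and the last exons of these 4 had at least 2.12 CGs per 100 bp. Zfp281 (2.98, 2.86 and 2.68 against 0.923, 0.929 and 0.937, log2 ratio 1.61) and Zfp955b (130 reads against 5, log2 ratio 4.90) were called higher in uTOP-seq as in hmTOP-seq. Zfp59, a KRAB gene in a run on chromosome 7, had the opposite pattern, with 0.0228, 0 and 0 in the last exon and 1.89, 2.13 and 2.06 in the rest. A unique flank, by exact match, was present at 81.2% of its last-exon CGs. The last exons of Zfp600 and Zfp960 had no uTOP-seq read, with a unique flank at 45.5% and 56.2% of their CGs.

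Next, hmTOP-seq at 500 ng was compared with uTOP-seq over the same regions, each library scaled by its autosomal total. In the 2-kb promoter upstream of the start, 8 of 338 Zfp genes were higher in hmTOP-seq and 272 lower (2.37% and 80.5%), against 6.38% and 56.2% of all 17049 genes tested. The median log2 ratio was -2.35 over the Zfp promoters and -1.33 over all promoters. Over the gene span, 11 of 370 Zfp genes were higher and 137 lower (2.97% and 37%), against 4.73% and 22.7% of 18988 genes, and in the last exon 59 of 282 were higher and 42 lower (20.9% and 14.9%), against 29.9% and 12.3% of 13167 genes. These splits rest on the scaling. With TMM factors, which center the ratios of all genes near 0 (the promoter median moved from -1.33 to -0.04), the Zfp calls became 33 higher and 170 lower in promoters, 17 and 113 in gene spans, and 17 and 81 in last exons, where the median Zfp ratio changed sign from 0.19 to -0.35. Over all genes, TMM gave 4923 higher and 5461 lower of 17049 promoters. It gave 1409 and 3506 of 18988 gene spans, and 1478 and 2535 of 13167 last exons. The Zfp median stayed below that of all genes in all 3 regions under both scalings.

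Promoters with few hmTOP-seq and many uTOP-seq reads included Zfp64, with 0.023 and 0.0117 in hmTOP-seq and 4.32, 4.31 and 4.97 in uTOP-seq, that is 3 reads over both libraries against 856. Zfp646 had 7 reads against 1363 over 151 CGs (log2 ratio -7.41 ± 0.26, SE; adjusted p = 2.87e-40), Zfp654 had 5 against 586 (-6.65 ± 0.36), and Zfp945 had none against 96, at least 28.9-fold lower. Zfp605 (1 read against 314) and Zfp91 (3 against 522) were alike.

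The reverse was seen in 8 promoters, or 5 without replicate 2 of the 500-ng libraries. Zfp982, the first gene of a run on chromosome 4, had 3.34 and 2.93 in hmTOP-seq and 0.672, 0.552 and 0.593 in uTOP-seq (log2 ratio 2.35 ± 0.26, SE; adjusted p = 1.36e-13). Zfp988, also on chromosome 4, had 5.88 and 4.69 against 2.19, 0.816 and 1.96, with a unique flank at 54.5% of 11 CGs. Zfp385c had 5.99 and 4.95 against 2.63, 3.19 and 2.11. Zfp869, Zfp872 and Zfp748 were called with log2 ratios of 1.58, 1.18 and 1.24, and that of Zfp385c was 1.04.

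Over whole gene spans, Zfp957, a solitary gene on chromosome 14, stood out with 1.38 and 1.42 in hmTOP-seq and 0.507, 0.370 and 0.484 in uTOP-seq (log2 ratio 1.62 ± 0.10, SE; adjusted p = 2.21e-22). The other spans called highest, those of Zfp986, Zfp955b, Zfp980, Zfp934 and Zfp600, all belonged to KRAB genes with low coverage in both assays and a unique flank at 36.0% to 85.2% of their CGs. Zfp830, a single-exon gene, was lowest, with 0.0874 and 0.0668 against 3.24, 3.23 and 2.93 (log2 ratio -5.32 ± 0.28, SE; adjusted p = 1.77e-26). Zfp503, a corepressor of the developing brain, had 0.248 and 0.264 against 2.44, 2.29 and 2.27, and Zfp36l2 0.142 and 0.158 against 1.42, 1.46 and 1.28. The span of Zfp882 (log2 ratio -3.35) overlaps that of Zfp617, so their reads cannot be told apart where they share CGs.

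In last exons, the ratio was highest in Zfp937 (2.90 ± 0.67 on the log2 scale, SE; adjusted p = 4.64e-04) and Zfp957 (3.16 and 3.12 against 0.527, 0.535 and 0.394). Zfp219, a cofactor of Sox9, followed with 7.41 and 5.73 against 1.58, 1.41 and 0.882, then Zfp658 and Zfp791, and Zfp687 had 6.04 and 5.81 against 1.17, 1.44 and 1.58. The ratio was lowest in Zfp771, whose last exon was the most CG-dense of all 387 genes at 13.6 CGs per 100 bp, with 0.00932 and 0.0190 against 1.31, 1.35 and 1.56. Zfp830, Zfp503, Zfp36l2, Zfp281 and Zfp426 followed, with log2 ratios from -5.32 to -2.39.

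hmTOP-seq coverage was low at the transcription start in both classes of genes. In the 100 bp downstream of the start, KRAB genes had a relative coverage of 0.228 ± 0.0038 in hmTOP-seq at 500 ng (SD over libraries, n = 2) and 2.89 ± 0.051 in uTOP-seq (SD, n = 3). Genes without a KRAB box had 0.151 ± 0.014 and 1.87 ± 0.032. At 2000 to 2100 bp downstream the values were 1.19 and 1.18 in KRAB genes and 1.36 and 1.99 in the others. In KRAB genes uTOP-seq was higher at the start than in the bin 1000 bp upstream (1.32), where hmTOP-seq had 0.746. In the others uTOP-seq was lower at the start than 1000 bp upstream (3.08) and 700 bp downstream (2.75), where hmTOP-seq had 0.770 and 0.592. Against these bins, both assays were thus lower at the start in genes without a KRAB box. Farther out the courses were opposite there too. In the bin 2900 bp downstream uTOP-seq was lower than at 700 bp (1.75) and hmTOP-seq higher (2.48).

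**Figure D1:**
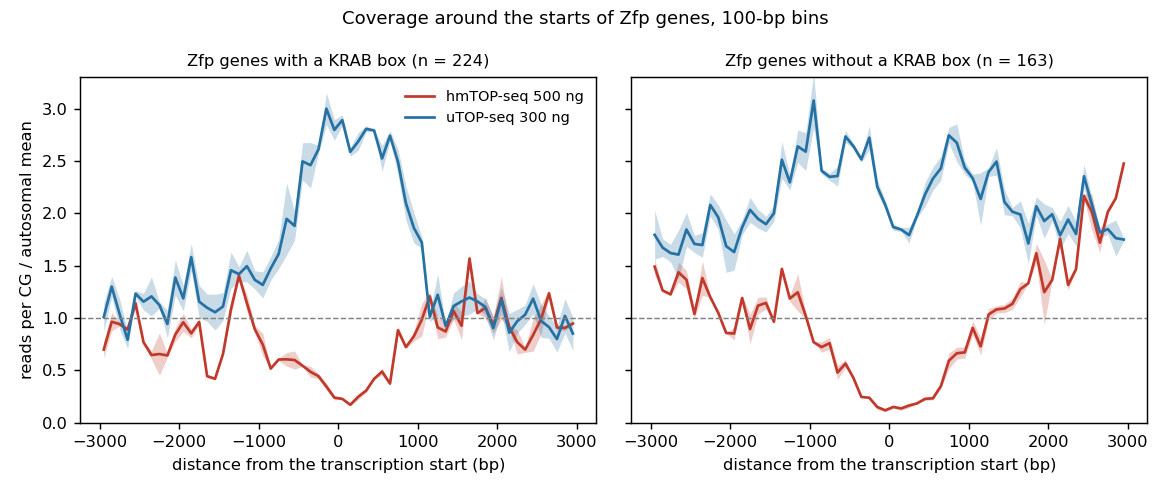
Relative coverage (reads per CG over the library's autosomal mean, y axis) in 100-bp bins by distance from the transcription start (x axis) for 224 Zfp genes with and 163 without a KRAB box; lines are means over libraries and bands ± 1 SD (2 hmTOP-seq, 3 uTOP-seq libraries). In the bin just downstream of the start, hmTOP-seq is at 0.228 and 0.151 and uTOP-seq at 2.89 and 1.87.

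The stretches upstream of Zfp932 and Zfp708, KRAB genes whose proteins bind endogenous retroviral elements, are shown because they have equal numbers of CGs and unlike coverage. Each line gives the 250 bases before the RefSeq start (GRCm38.p6), 5′ to 3′ on the gene's strand, with CGs in capitals.
Zfp932 upstream: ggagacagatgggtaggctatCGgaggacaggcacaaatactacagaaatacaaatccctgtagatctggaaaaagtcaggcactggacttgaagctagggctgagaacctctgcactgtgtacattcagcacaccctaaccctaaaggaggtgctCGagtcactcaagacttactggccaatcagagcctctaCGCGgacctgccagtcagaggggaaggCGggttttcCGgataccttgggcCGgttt
Zfp708 upstream: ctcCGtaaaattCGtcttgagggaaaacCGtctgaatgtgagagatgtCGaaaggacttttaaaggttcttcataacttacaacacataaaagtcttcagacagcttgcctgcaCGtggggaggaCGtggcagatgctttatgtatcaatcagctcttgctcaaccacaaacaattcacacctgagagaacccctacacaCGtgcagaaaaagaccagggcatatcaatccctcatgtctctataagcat

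The Zfp932 stretch (chr5:109996277-109996526, plus strand) has 7 CGs with no hmTOP-seq read in the 2 libraries from 500 ng and 33, 23 and 29 uTOP-seq reads, a relative coverage of 3.43, 2.95 and 4.26. The Zfp708 stretch (chr13:67097977-67098226, minus strand) also has 7 CGs, with 8 and 5 hmTOP-seq reads and 11, 6 and 4 uTOP-seq reads, a relative coverage of 0.724 and 0.461 against 1.14, 0.769 and 0.588. With as many CGs, the first had uTOP-seq coverage far above the autosomal mean and the second had not. These stretches do not stand for the 2-kb promoters, where Zfp708 was called lower in hmTOP-seq than in uTOP-seq and Zfp932 was not called.

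Clustered and solitary genes were compared by the median relative coverage of each library, with no test, since neighboring genes are not replicates. In the last exon the median of the clustered genes was 0.509 ± 0.025 in hmTOP-seq at 500 ng (SD over libraries, n = 2; 211 genes) and that of the solitary genes 1.11 ± 0.024 (164 genes), a log2 ratio of -1.13 ± 0.040 (SD), lower in 2 of 2 libraries. Pooled over CGs the ratio was -0.38. Among genes with a C2H2 finger, the last exon held most fingers in 210 of 215 clustered but only 85 of 156 solitary ones. At 50 ng the medians were 0.601 and 1.18. In uTOP-seq they were 0.712 ± 0.020 and 0.970 ± 0.068 (SD, n = 3), lower in 3 of 3 libraries. Over gene spans the clustered genes had 0.667 against 0.917 in hmTOP-seq and 1.34 against 1.36 in uTOP-seq, and in promoters 0.408 against 0.429 and 2.07 against 2.24. The direction in promoters turned with the setting: the hmTOP-seq log2 ratio of -0.07 became 0.08 pooled over CGs, 0.92 within KRAB genes, 0.09 with at least 3 fingers and 0.94 within 500 bp of the start, and the uTOP-seq ratio of -0.11 became 0.37 within 500 bp and 0.22 without a KRAB box. All protein-coding genes had medians of 1.20 (last exon), 1.01 (span) and 0.570 (promoter) in hmTOP-seq and 1.01, 1.27 and 1.82 in uTOP-seq. On the 12 autosomes with at least 3 last exons of each kind, however, the clustered genes were lower in hmTOP-seq on only 6.

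The medians of the last exon differed by the KRAB box more than by clustering. The last exon held most fingers in 219 of 221 KRAB genes with a C2H2 finger, but in only 76 of 150 others. Many last exons of genes without a KRAB box were thus not the finger-coding exon. KRAB genes had a last-exon median of 0.372 ± 0.028 in hmTOP-seq at 500 ng (SD, n = 2; 217 genes) and genes without one 1.64 ± 0.027 (158 genes), a log2 ratio of -2.14 ± 0.083, and they were lower on 9 of the 11 autosomes with at least 3 of each. Pooled over the CGs of all these last exons the contrast was smaller, with 1.31 ± 0.025 in KRAB genes, above the autosomal mean, and 2.13 ± 0.10 in the others. Within KRAB genes the clustered had 0.382 ± 0.015 and the solitary 0.333 ± 0.070, and within genes without a KRAB box 1.57 ± 0.034 and 1.66 ± 0.036. The uTOP-seq medians were 0.609 and 0.598 within KRAB genes and 1.48 and 1.18 within the others. Unlike the last exon, the gene span kept a contrast within KRAB genes, but with the sign turned: clustered KRAB genes had 0.584 ± 0.005 and solitary ones 0.456 ± 0.001. Unique flanks were present at 97.4% of the last-exon CGs of clustered KRAB genes and 89.3% of those of solitary ones. Over the gene span they were present at 90.8% and 85.5%. Pooled over span CGs with a unique flank, hmTOP-seq at 500 ng gave 0.910 and 0.915 in clustered KRAB genes. Solitary ones had 0.775 and 0.791. The part of flank uniqueness in the span contrast was not tested.

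CG density moved with the KRAB box. Across 375 last exons, CGs per 100 bp and hmTOP-seq coverage had a rank correlation of 0.701 and CGs per 100 bp and uTOP-seq coverage one of 0.644, across genes that share libraries and base composition. With the last exons divided into 4 equal classes by density, in the lowest (below 0.739 CGs per 100 bp) the hmTOP-seq median was 0.0945 in 80 KRAB genes and 0.350 in 14 others. In the next class it was 0.369 and 0.955, and in the one above 0.614 and 1.71. Within a class the genes were not matched by density. In the highest class (above 2.20 CGs per 100 bp) 31 KRAB genes had 2.52 ± 0.21 and 63 others 2.51 ± 0.037 (SD, n = 2), a difference within the spread of the libraries. The uTOP-seq median was lower in KRAB genes in all 4 classes, with 1.35 ± 0.061 against 2.39 ± 0.11 (SD, n = 3) in the highest. The part of density in the KRAB contrast was not tested further.

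**Figure D2:**
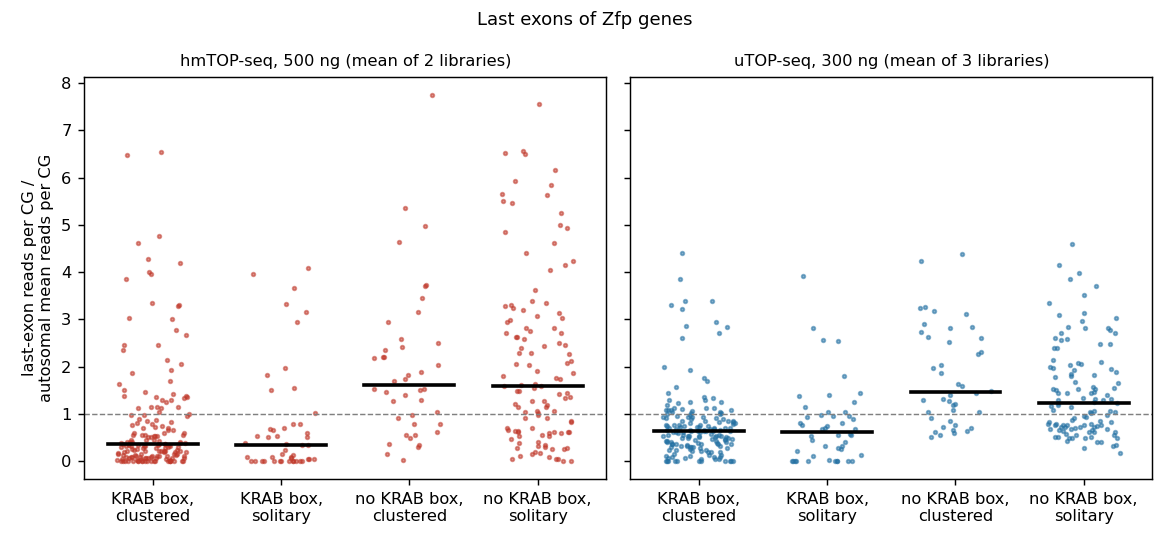
Relative coverage of the last exon (y axis) of each Zfp gene with at least 5 CGs there, by KRAB box and by clustered or solitary position; points are genes (mean of 2 hmTOP-seq or 3 uTOP-seq libraries), black bars medians over genes and the dashed line the autosomal mean. KRAB genes lie mostly below 1 in hmTOP-seq whether clustered or solitary, and the genes without a KRAB box are centered above it.

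The 15 runs of at least 5 genes spanned a wide range of last-exon coverage, pooled over each run's CGs. The lowest was the run from Zfp677 to Zfp994 (chr17:21383748-22225616, 15 genes, all with a KRAB box), at 0.148 and 0.105 in hmTOP-seq from 500 ng and 0.489 ± 0.086 in uTOP-seq (SD, n = 3). The longest, from Zfp712 to Zfp273 (chr13:67038596-67827002, 23 genes, all with a KRAB box), had 0.288 and 0.343 and 0.457 ± 0.029. Both have sparse CGs, with medians of 0.551 and 0.605 CGs per 100 bp, and 99.1% and 98.4% of these CGs had a unique flank. The 6 lowest runs consisted of KRAB genes only.

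The highest runs lay on chromosomes 6 and 7. The run from Zfp628 to Zfp580 (chr7:4915217-5053723, 6 genes, none with a KRAB box), which holds Zfp524, had 2.96 and 2.67 in hmTOP-seq and 2.32 ± 0.048 in uTOP-seq, and that from Zfp553 to Zfp689 (chr7:127233061-127449158) 2.74 and 2.67 and 2.22 ± 0.062. KRAB genes could be high in a run as well: the run from Zfp180 to Zfp94 (chr7:24081924-24316666), 9 of whose 10 genes have a KRAB box, had a mean of 1.98 ± 0.033 in hmTOP-seq and 1.03 ± 0.059 in uTOP-seq. The assays did not rank the runs alike, since another run on chromosome 7, from Zfp787 to Zfp28, had 0.941 and 0.912 in hmTOP-seq but 1.52 ± 0.17 in uTOP-seq. The remaining runs, from Zfp607b to Zfp850, Zfp560 to Zfp846, Zfp982 to Zfp933, Zfp868 to Zfp866, Zfp354c to Zfp354b, Zfp871 to Zfp563, Zfp329 to Zfp446, Zfp84 to Zfp146 and Zfp786 to Zfp746, lay between 0.391 and 2.17 in hmTOP-seq.

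**Figure D3:**
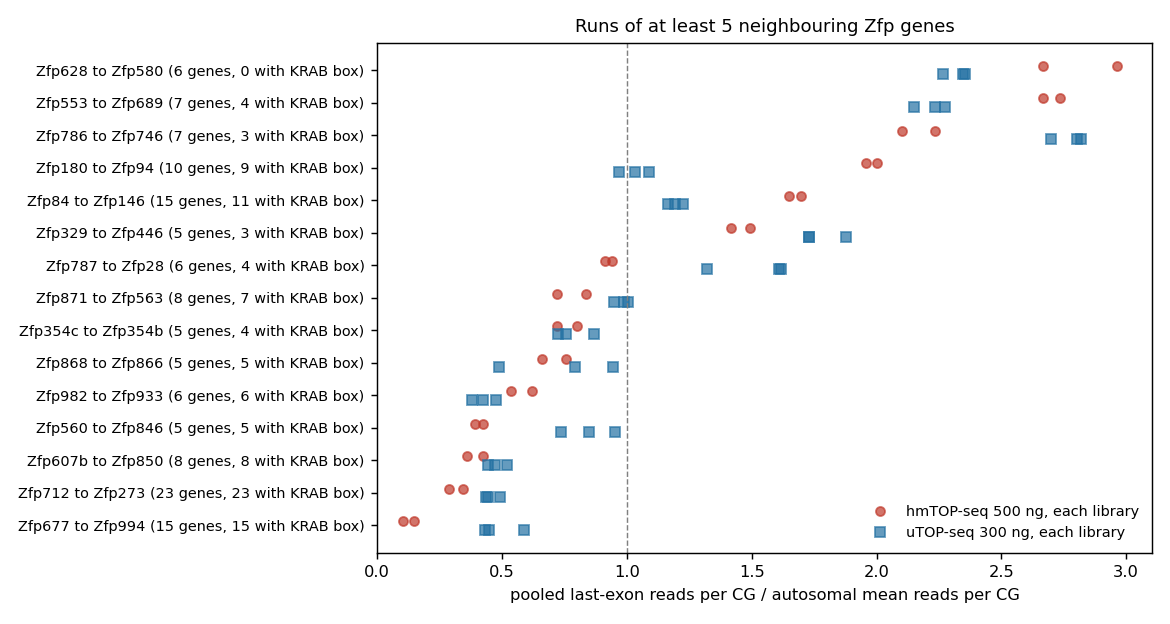
Last-exon reads per CG pooled over each run of at least 5 neighboring Zfp genes, relative to the autosomal mean (x axis), with one point per library for hmTOP-seq at 500 ng and uTOP-seq, ordered by the hmTOP-seq mean. Runs made only of KRAB genes fill the lower end, from 0.127, and the run from Zfp628 to Zfp580 the upper end, at 2.82.

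The finger repeats give a finer view, since each CG can be placed by the codon in which it lies. Repeats of 28 residues in 330 genes held 5782 CGs, with a relative coverage of 1.88 ± 0.028 in hmTOP-seq at 500 ng (SD, n = 2) and 1.54 ± 0.024 in uTOP-seq (SD, n = 3). Positions are counted from 1 at the first cysteine, so that the zinc-binding residues are at 1, 4, 17 and 21 and the linker starts at 22. CGs starting in the codon of residue 22, usually the threonine of the linker, had the highest hmTOP-seq coverage at 500 ng over all these genes, 3.94 and 3.85 (521 CGs in 187 genes), against 2.39, 2.49 and 2.24 in uTOP-seq. Residue 18, after the first zinc-binding histidine, followed with 3.37 and 3.21 (174 CGs), where uTOP-seq was only 1.16, 1.20 and 0.999. Residue 2, between the cysteines, had 2.86 and 2.92. The lowest values were at residue 7, with 0.509 and 0.584 (157 CGs), and residue 24, with 0.539 and 0.613 (20 CGs), where uTOP-seq gave 1.08 ± 0.079 and 1.21 ± 0.068. At residue 18, 160 of the 174 CGs lay in the first and second codon bases, as in an arginine codon.

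**Figure D4:**
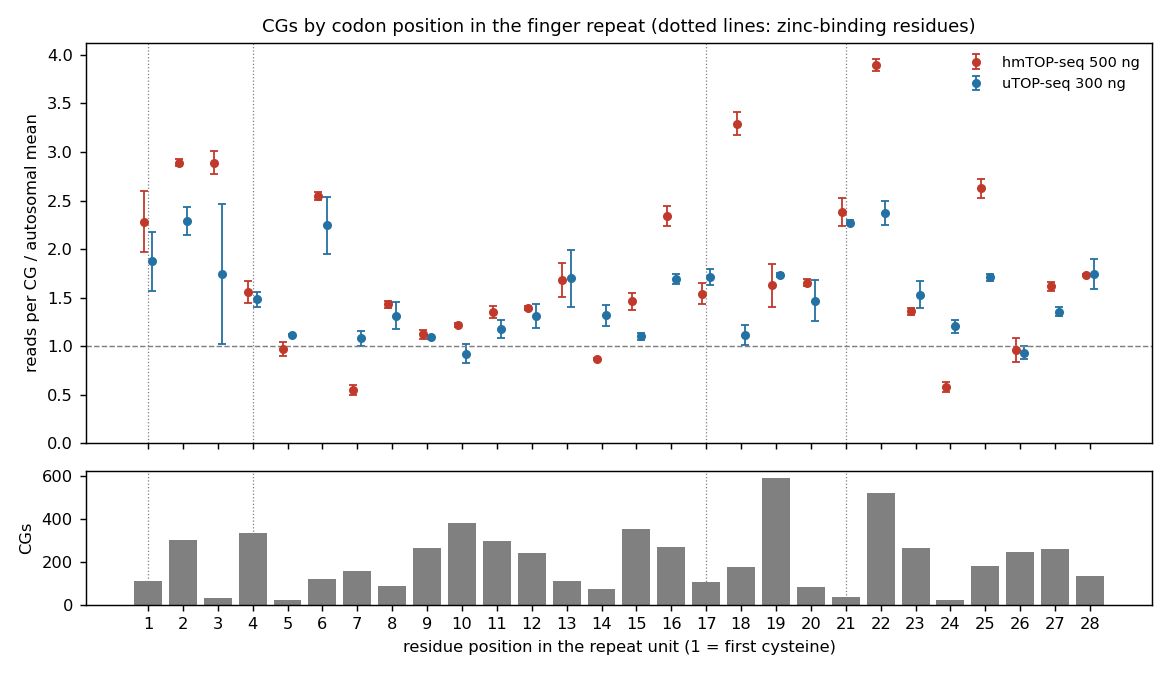
Relative coverage of the CGs of 28-residue C2H2 repeats (upper panel, y axis) by the residue whose codon holds the C (x axis), as mean ± 1 SD over 2 hmTOP-seq libraries at 500 ng and 3 uTOP-seq libraries, with the number of CGs below. hmTOP-seq peaks at residue 22 (3.89) and residue 18 (3.29) and is lowest at residue 7 (0.546).

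Residue 22 was also highest in the 50-ng libraries, at 3.39 ± 0.31 (SD, n = 2), and residue 7 lowest, at 0.452 ± 0.059, while residue 18 had 2.85 ± 0.16 and came after residue 3, which has only 32 CGs. At 5 ng residue 18 (2.82 ± 1.72) and residue 21 (2.79 ± 2.14, 38 CGs) were above residue 22 (2.73 ± 0.29), with libraries that overlapped. In genes without a KRAB box residue 3 (9 CGs) had 5.89 ± 0.63 at 500 ng, above residue 22. The CGs come from different genes at each position, so the order of positions also carries which genes have a CG there. Over all positions, the repeats of KRAB genes had 1.51 ± 0.030 and those of the other genes 2.46 ± 0.12 in hmTOP-seq at 500 ng. At residue 18 they had 3.22 ± 0.078 (98 CGs) and 3.37 ± 0.17 (76 CGs), a difference within the spread of the libraries, and at residue 22 the KRAB genes had 3.83 ± 0.044 (320 CGs).

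Genes of known role spanned most of this range. Zfp57, which with Trim28 keeps methylation at imprinted regions, had a promoter at 0.215 and 0.219 in hmTOP-seq, against 3.29, 3.14 and 3.37 in uTOP-seq, and a last exon high in both assays (3.41 and 4.52 against 3.72, 3.93 and 4.08). Its last exon exceeded the rest of its span in hmTOP-seq (log2 ratio 2.84, adjusted p = 6.70e-12) but was not called in uTOP-seq (0.36). Zfp445, the other imprint-keeping KRAB protein, had 1.48 and 1.51 in the promoter and 0.492 and 0.527 in the last exon, and none of its comparisons was called. Zfp568, a KRAB repressor of placental Igf2 transcripts, had 2.91 and 3.14 in the last exon. Zfp708 and Zfp932 had 0.238 and 0.403, and no read in 10 CGs. Zfp809, which silences retroviruses through their primer binding site, has fewer than 5 CGs in its last exon and had 1.21 and 1.31 over its span.

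Among the genes without a KRAB box, Zfp423 and Zfp521 are long paralogs that act with EBF factors. Zfp423 was one of the 5 highest gene spans, at 3.10 and 3.08, whereas Zfp521 was near the autosomal mean at 1.03 and 1.01. Zfp296, a germ and stem cell factor, had 4.91 and 3.56 in its last exon and 0.290 and 0.424 in the rest. The CCCH genes Zfp36 and Zfp36l1 shared this shape, with 1.51 and 1.15 against 0.188 and 0.201, and 0.963 and 1.18 against 0.127 and 0.230. Zfp462, a neurodevelopmental regulator, and Zfp148 had low promoters of 0.0827 and 0.0655, and 0.0437 and 0.0334. Promoters were called lower in hmTOP-seq than in uTOP-seq in 18 of these 20 genes, all but Zfp445 and Zfp932, with Zfp143, Zfp217, Zfp335, Zfp106 and Zfp638 among them. This stood beside 80.5% of the Zfp promoters and 56.2% of all promoters tested, and the list was chosen with earlier results known. The last exon of Zfp638 has no CG.

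**Figure D5:**
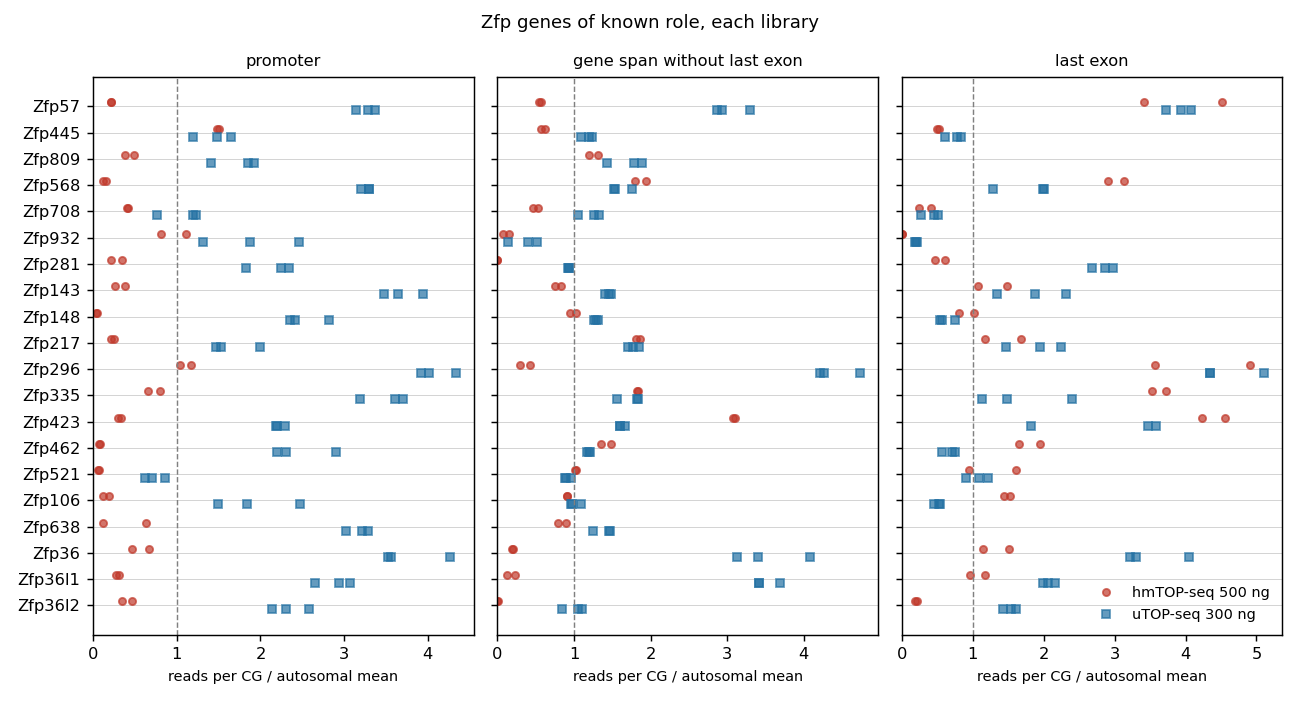
Relative coverage (x axis) of 20 Zfp genes of known role in the promoter, the gene span without the last exon and the last exon, with one point per library of hmTOP-seq at 500 ng and uTOP-seq; regions with fewer than 5 CGs have no point. Some promoters lie low in hmTOP-seq, such as 0.215 and 0.219 in Zfp57, whereas that of Zfp445 lies above the autosomal mean. Several last exons lie far above the rest of their gene, such as 4.91 and 3.56 in Zfp296.

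The genes of the cofactors of KRAB proteins, a list of 8, are no Zfp genes and are given for comparison. Cbx5, an HP1 protein, had no hmTOP-seq read in its promoter at 500 ng and 4.02, 3.84 and 3.50 in uTOP-seq, and Cbx3, another, had 0.00377 and 0.0115 against 3.10, 3.40 and 2.93. Trim28 itself had 0.753 and 0.898 against 3.33, 3.48 and 3.46, and Setdb1 0.181 and 0.277 against 1.22, 1.47 and 1.43. The promoters of these 4 genes and of Dnmt1 were called lower in hmTOP-seq, and those of Atf7ip, Cbx1 and Uhrf1 were not called. These 5 of 8 stood beside 56.2% of all promoters tested, a share near the background.

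The span with the highest hmTOP-seq coverage at 500 ng, among those with at least 50 CGs, was that of Zfp683 (mean 4.07), which codes Hobit, a factor of tissue-resident lymphocytes. Zfp526 (4.31 and 3.67), Zfp710 (3.38 and 3.31) and Zfp319 (3.46 and 2.95) came next, before Zfp423 (3.10 and 3.08), where the libraries of Zfp683 and Zfp526 overlapped, as did those of Zfp319 with Zfp710 and with Zfp423. The 5 lowest, Zfp965, Zfp966, Zfp967, Zfp968 and Zfp969 on chromosome 2, had no read in any of the 5 libraries, and none of their 87 to 90 CGs had a unique flank.

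Gene spans were last compared between inputs, with TMM factors in the edgeR tests. With 50 ng against 500 ng, 0 of 365 Zfp genes were called in either direction by edgeR at adjusted p below 0.05 (39 had an unadjusted p below 0.05, and DESeq2 called 1), where 0% of 18249 genes were higher and 0.00548% lower. With 5 ng against 500 ng, 0 of 361 were called (28 had an unadjusted p below 0.05, and DESeq2 called 9 higher and 1 lower), where 0% of 18109 genes were higher and 0% lower. Over all genes DESeq2 called 75 higher and 64 lower at 50 ng, and 528 and 361 at 5 ng. The 0 counts of edgeR rested on both low-input libraries, since genes were called with 1 left out. The lone library was then assumed to vary like those at 500 ng. In those fits the median Zfp log2 ratio at 50 ng was 0.006 without replicate 1 and 0.044 without replicate 2. At 5 ng it was 0.013 and -0.028. Across the 387 gene spans the rank correlation between replicates was 0.985 for the 500-ng, 0.941 for the 50-ng and 0.723 for the 5-ng libraries, given as a description. The medians over KRAB genes were 0.542, 0.594 and 0.601, and over the others 1.10, 1.10 and 1.11, from 500 to 5 ng.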

How the data were processed

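The authors mapped reads to the mouse genome mm10, required a minimal mapping quality and removed duplicates by shared start and length. They deposited read counts per CG, with both strands merged in hmTOP-seq and per strand in uTOP-seq, which were summed here. The aligner is not given in the sources used here. Counts were summed over the 2-kb promoter, the gene span, the last exon and the rest of the span of each autosomal protein-coding gene, with the transcript of the longest coding sequence. One Zfp gene is not reported here.

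Regions needed at least 5 CGs, and tests a mean count of at least 10. Tests used edgeR 4.0.16 in R 4.3.3 over all genes, with library offsets from autosomal totals. Between inputs these totals were multiplied by TMM factors. Calls needed a Benjamini-Hochberg adjusted p below 0.05 and, except between inputs, at least a 2-fold ratio. DESeq2 1.42.0 was an alternative, as were TMM factors for hmTOP-seq against uTOP-seq and library totals alone between inputs. SEs are the log2 ratio divided by the root of its F value. On simulated data, 3-fold changes in 200 genes were recovered in 99.5% for the last exon against the rest in hmTOP-seq (14609 genes) and 98% in uTOP-seq (15003 genes). The changed genes were drawn from those with more CGs and reads than the tests required, at a dispersion of 0.01. Recovery in CG-poor last exons was thus not measured. KRAB boxes and fingers were sought by patterns in translated GENCODE coding sequences, which can miss divergent boxes. Sums and medians used Python 3.11.15 with numpy 2.4.6, pandas 2.3.3, scipy 1.17.1 and pysam 0.24.0. Intervals are exact Clopper-Pearson and, like floors of 3 reads, cover counting error only.

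Named genes were the 6 called genes with the highest and the 6 with the lowest ratio of each comparison, the 5 highest and 5 lowest spans with at least 50 CGs, and 20 genes of known role. Members, lists and rules were chosen with earlier results of these data known. The tests took technical libraries as replicates, and total reads were 14884939 to 32502791 per labeled hmTOP-seq library, 20120568 to 28412885 in uTOP-seq and 3409 to 10072 in controls.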

Additional observations from a re-analysis of the deposited data

Results flagged for a closer look

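In the gene span without the last exon, the log2 ratio of clustered to solitary medians was -0.31 in hmTOP-seq at 500 ng, below 0 in both libraries, and 0.07 in uTOP-seq, above 0 in all 3 libraries. Within KRAB genes the ratios were 0.44 and 0.10, in the same direction in both assays, and without a KRAB box -0.50 and 0.50. The opposite signs were thus not seen within KRAB genes, and the difference between the assays was not tested.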

How the results depend on the processing

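Without the fold minimum, Zfp calls rose to 52 higher and 198 lower of 349 for the last exon against the rest in uTOP-seq. All genes gave 2454 and 5811 of 15016. For hmTOP-seq against uTOP-seq the calls were 64 and 244 of 370 spans, and 99 higher of 282 last exons. All genes gave 5848 and 9549 of 18988 spans, and 5729 higher of 13167 last exons. TMM gave 17 higher in spans, 33 and 170 in promoters and 17 and 81 in last exons. Over all genes it gave 1409, 4923 and 5461, and 1478 and 2535. DESeq2 gave 17, 31 and 166, and 15 and 71, against 1497, 4887 and 5331, and 1290 and 2314 over all genes. Without the count filter 65 of 355 last exons were lower, against 2302 of 16812 over all genes. Between inputs DESeq2 gave 1 higher at 50 ng and 9 and 1 at 5 ng. All genes gave 75 higher at 50 ng and 528 and 361 at 5 ng. With 1 library left out, the last exon against the rest in uTOP-seq ranged from 13 to 16 higher and 119 to 125 lower, spans from 8 to 13 and 135 to 139, promoters from 5 to 9 and 268 to 272, last exons from 50 to 58 and 33 to 42, 50 ng from 0 to 22 and 0 to 27, and 5 ng from 0 to 113 and 0 to 105. The hmTOP-seq test of last exon against rest could not be fitted without a library.

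The log2 ratio of clustered to solitary genes in hmTOP-seq promoters was 0.08 pooled over CGs, -0.16 with 250 kb, 0.92 in KRAB genes, 0.09 with at least 3 fingers and 0.94 within 500 bp of the start. In spans it was -0.48 pooled, -0.23 with 50 kb, -0.63 with 250 kb, -0.47 at unique CGs, 0.36 in KRAB genes, -0.52 with at least 3 fingers and -0.19 without a KRAB box, and in last exons -0.38 pooled, -0.92 with 50 kb, -1.44 with 250 kb, 0.21 in KRAB genes and -0.07 without a KRAB box. In uTOP-seq promoters it was -0.06 pooled and with 50 kb, -0.20 with 250 kb, 0.22 without a KRAB box and 0.37 within 500 bp of the start, in spans 0.14 pooled, 0.07 in KRAB genes and 0.46 without a KRAB box, and in last exons -0.22, 0.03 and 0.32. The split without a KRAB box was chosen after seeing the data. Left-out libraries gave -0.11 to -0.03, -0.47 to -0.45 and -1.16 to -1.10 in hmTOP-seq promoters, spans and last exons, and -0.13 to -0.09, -0.06 to 0.03 and -0.50 to -0.37 in uTOP-seq. In the finger repeat, unique CGs gave 1.93 over all positions, and the 50-ng libraries 1.72, 3.39 at residue 22 and 0.452 at residue 7. The causes were not tested.

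The replicate numbers did not pair the samples (correlations of deviations 0.0456, -0.00634 and 0.00066). With the replicate block the calls were 104 and 76, and 13 and 128, for the last exon against the rest in hmTOP-seq and uTOP-seq, 13 and 138 in spans, 6 and 270 in promoters, 57 and 39 in last exons, and 0 between inputs.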
